A study of Mus musculus with 6 samples.

Results

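Islet hormone and prohormone convertase genes were examined in ATAC-seq data from mouse cell lines of pancreatic, lens and kidney origin. The 8 genes were *Ins1*, *Ins2*, *Iapp*, *Gcg*, *Sst*, *Ppy*, *Pcsk1* and *Pcsk2*, chosen by name from 22367 annotated protein-coding genes. The Pax6-HIGH line, β-TC3, is of insulinoma origin, and β-TC lines come from tumors of mice that carry a viral oncogene under a rat insulin promoter. Pax6-ON cells (MV+) derive from cultured lens epithelia of a wild-type C57BL6 mouse, and Pax6-OFF cells (RAG) from a renal adenocarcinoma of the BALB/c strain. All 3 lines grew in the same medium with fetal calf serum and no treatment is named for any, each is a single line, and the study's methods state that none was authenticated. The lysis buffer, mixed with an equal volume of cells in buffer without detergent, held 0.2% NP40 for Pax6-ON cells and 0.1% for the others, which cannot be told apart from the line itself. The replicates of each line had been pooled before peaks were called, so there is 1 list of peaks per line and no value below has a replicate error or a test between lines.

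ATAC-seq reads out where the Tn5 transposase can cut, so a peak marks a stretch of accessible chromatin such as an active promoter or enhancer. Islet endocrine cells are specialized by hormone. Beta cells express the insulin genes and *Iapp*, alpha cells *Gcg*, delta cells *Sst* and PP cells *Ppy*. Each hormone is made as a longer precursor that the convertases encoded by *Pcsk1* and *Pcsk2* cut inside secretory granules, *Pcsk1* and *Pcsk2* together in proinsulin and *Pcsk2* chiefly in the glucagon precursor of alpha cells. PAX6 itself binds and activates several of these promoters in the islet. Here TTCACGC, part of a paired-domain site, matched none of these genes' promoters and none of their peak summits. It was found in 1.33% of all promoters, and PAX6 binding was not tested.

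In Pax6-HIGH cells 28024 peaks had been called from 100254099 fragments, compared with 9821 from 130955836 in the Pax6-ON line and 14022 from 102223606 in the Pax6-OFF line. The lowest number of fragments at any peak summit (the pileup) was 25, 30 and 25, and weaker sites were not called. Start-site peaks were also checked at markers of the labelled tissues. Over all protein-coding genes, 46.4%, 21.4% and 36.1% had one in the Pax6-HIGH, Pax6-ON and Pax6-OFF lines. The marker lists are short, and their counts were not tested against these shares. Of 10 beta-cell markers, 5, 3 and 1 had one in the Pax6-HIGH, Pax6-ON and Pax6-OFF lines, with *Neurod1* and *Nkx2-2* in Pax6-HIGH cells alone, while *Pdx1*, *Insm1*, *Slc2a2*, *Abcc8* and *Slc30a8* had none in any line. Of 4 alpha-cell markers, 3 had one in Pax6-HIGH and 1 in each other line. Of 3 delta-cell markers, only *Rbp4* had one, in Pax6-HIGH cells. Of 7 lens markers, 2 had one in each line, and the lens markers *Foxe3*, *Cryaa* and *Mip* had none in Pax6-ON cells or elsewhere. Of 6 kidney tubule markers, *Pax2*, *Cdh16* and *Emx2* had one in Pax6-OFF cells, which is 3, with 1 for Pax6-ON (*Emx2*) and 0 for Pax6-HIGH.

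The window of each gene was its body and 10 kb on either side, and a peak within 1 kb of an annotated start was taken as a start-site peak. In Pax6-HIGH cells, *Gcg* and *Pcsk2* had a start-site peak, which is 2 of the 8 genes, where 46.4% of all protein-coding genes had one. In Pax6-ON cells it was *Pcsk2* alone, 1 of 8 against 21.4% of all genes, and in Pax6-OFF cells 0 of 8 against 36.1%. A peak anywhere in the window was found for 4 of 8 genes in Pax6-HIGH cells (*Iapp*, *Gcg*, *Sst* and *Pcsk2*), against 61.6% of all genes. For Pax6-ON it was 2 of 8 (*Iapp* and *Pcsk2*) against 30.6%, and for Pax6-OFF 2 of 8 (*Sst* and *Ppy*) against 48.9%. The windows of *Ins1*, *Ins2* and *Pcsk1* held no peak in any line, 3 of 8 genes against 32.6% of all genes. *Gcg* was the only member with a start-site peak in Pax6-HIGH and in neither other line, a pattern of 11.1% of all genes. *Pcsk2* was the only one with it in Pax6-HIGH and Pax6-ON but not Pax6-OFF cells, a pattern of 2.32% of all genes.

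**Figure D1:**
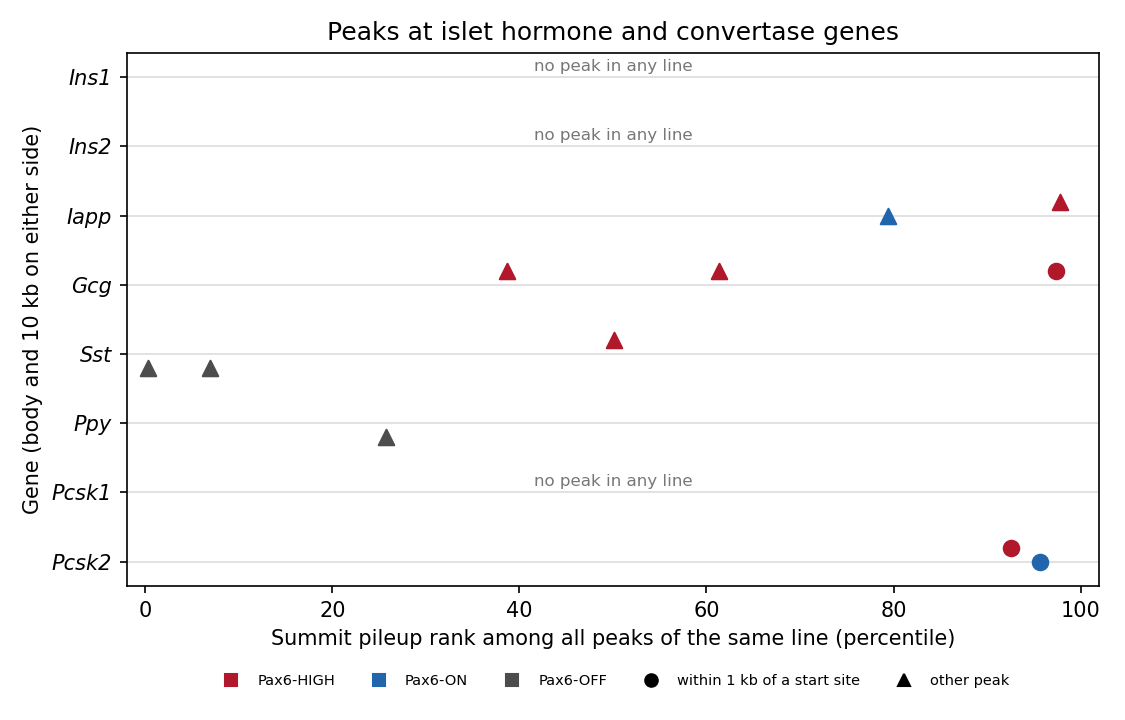
Rank of every peak at the 8 genes by its summit pileup, as a percentile of all peaks of the same line (x axis), for each gene (y axis). Red, blue and gray points stand for Pax6-HIGH, Pax6-ON and Pax6-OFF cells, circles for start-site peaks and triangles for other peaks. The 3 start-site peaks lie at 92.6 or higher, and *Ins1*, *Ins2* and *Pcsk1* have no point.

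The insulin genes carried no called accessible site in the insulinoma line. *Ins1* lies on chromosome 19 from 52338813 to 52339946 (mm9, plus strand), and the nearest Pax6-HIGH peak was 704 kb from its start. Only 1.81% of all protein-coding genes had a gap at least as long in that line, where the median gap was 6.62 kb. The nearest peak was 301 kb away in Pax6-ON and 705 kb in Pax6-OFF cells. *Ins2*, the other insulin gene, spans 149864561 to 149885415 on chromosome 7 (minus strand), with its main start at 149865631 and a longer transcript that starts upstream. Its nearest peak was 146 kb away in Pax6-HIGH cells (12.1% of genes had a gap as long), 208 kb in Pax6-ON and 242 kb in Pax6-OFF cells. In Pax6-HIGH cells that peak was at the start of *Mrpl23*, a mitochondrial ribosomal protein gene. Neither insulin gene gained a peak when the window was widened to 20 kb.

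The sequences just upstream of both insulin genes are shown because no peak was called on them in any line, the insulinoma line included. They run 5′ to 3′ along the gene and end at the base before the annotated start. Capitals mark matches, on either strand, to the motif letters searched.

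*Ins1*, chr19:52338563-52338812, plus strand: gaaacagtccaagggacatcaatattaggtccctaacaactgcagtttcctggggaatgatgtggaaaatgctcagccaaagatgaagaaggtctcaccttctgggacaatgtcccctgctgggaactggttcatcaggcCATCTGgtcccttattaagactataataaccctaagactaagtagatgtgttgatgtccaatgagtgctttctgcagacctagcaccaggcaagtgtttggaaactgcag
*Ins2*, chr7:149865632-149865881, minus strand: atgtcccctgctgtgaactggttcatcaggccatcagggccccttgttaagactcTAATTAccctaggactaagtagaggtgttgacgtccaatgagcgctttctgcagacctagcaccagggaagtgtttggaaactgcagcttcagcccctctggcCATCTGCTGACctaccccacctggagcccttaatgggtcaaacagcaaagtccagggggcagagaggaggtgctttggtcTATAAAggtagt

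The pair aligned over 141 bases, of which 130 were identical (92.2%). The last 16 bases printed for *Ins1* recur in the *Ins2* run 108 bases before the *Ins2* start, so the annotated *Ins1* start lies upstream of the matching point in *Ins2*. The *Ins1* run is therefore not the full counterpart of the *Ins2* run. The motif search at *Ins1*, which ended 50 bases past its annotated start, also stopped short of that point. Motif distances are from each gene's own start and do not mark matching places. Of the motifs found at *Ins2* but not at *Ins1*, only the TATA box letters may lie beyond the *Ins1* bases searched. The *Ins1* run holds the E-box letters CATCTG, bound by factors of the NEUROD1 class, 110 bases before its start, and a second match falls 17 bases past the start. Carried on without gaps, the 108-base offset places this second match, not the first, at the *Ins2* CATCTG. The *Ins2* run holds the homeobox letters TAATTA 195 bases, CATCTG 92 bases and the MAF letters TGCTGAC 88 bases before its start, with the latter matches overlapping. It also holds the TATA box letters TATAAA 12 bases before its start. By the same offset, TATAAA falls beyond the *Ins1* bases searched. The places of TAATTA and TGCTGAC fall within those bases, where *Ins1* held neither. Within the 300 bases around a start (250 before and 50 after), CATCTG was found in 14.7% of all 22367 promoters, TAATTA in 4.73%, TGCTGAC in 4.18% and TATAAA in 13.4%. Within 1 kb of each insulin gene's start, all 1927 words of 75 bases, the read length, occurred once in the mm9 genome. This count covers exact copies near the annotated starts only, not the rest of the windows. Whether read mapping had a part in the missing peaks was not tested. Chromosomes 7 and 19 held 9.38 and 8.78 peaks per Mb in Pax6-HIGH cells, beside 11.0 over all autosomes.

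*Iapp* encodes amylin, which beta cells secrete with insulin. Its window held 1 site, called both in the Pax6-HIGH and in the Pax6-ON line, and no start-site peak. The Pax6-HIGH peak ran from 142237823 to 142238639 on chromosome 6, with its summit 8.73 kb upstream of the *Iapp* start at 142246943, in an intron of the transporter gene *Slco1a5*. Its summit held 230 fragments, 6.86 times the local background, with a q-value of 107 on the −log10 scale. This was the highest pileup among the peaks of the 8 genes, at the 97.8th percentile of its line. By fold enrichment the *Pcsk2* peak of Pax6-ON cells, at 6.87, was level with it. The Pax6-ON peak, from 142237986 to 142238485, lay wholly within it, with its summit 104 bp away. Its summit held 92 fragments, 6.13 times the local background, at the 79.4th percentile of its own line. In Pax6-OFF cells, the nearest peak was 47.1 kb from the *Iapp* start, at the start of *Pyroxd1*.

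Chromosome 6 held 27.9 peaks per Mb in Pax6-HIGH cells, against 11.0 over all autosomes, and the background at its peaks was higher, with a median of 15.6 fragments against 12.4. Ranked on chromosome 6 alone, the *Iapp* peak was at the 95.5th percentile, below the *Gcg* start-site peak, which stood at 98.5 on chromosome 2. The part of the chromosome's peak density in the presence of this peak was not tested. In Pax6-ON cells, where the same site was called, chromosome 6 held 4.35 peaks per Mb against 3.81 over all autosomes. The 200 bases around the Pax6-HIGH summit are shown because this is the only *Iapp* site called.

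*Iapp* upstream site, chr6:142238113-142238312, plus strand: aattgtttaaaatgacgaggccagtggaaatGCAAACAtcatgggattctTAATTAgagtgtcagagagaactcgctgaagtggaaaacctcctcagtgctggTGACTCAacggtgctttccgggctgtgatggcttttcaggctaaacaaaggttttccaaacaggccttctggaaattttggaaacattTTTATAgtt

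The run holds GCAAACA (a forkhead match, searched as TGTTTGC), the homeobox letters TAATTA, an AP-1 match TGACTCA (searched as TGAGTCA) and TTTATA (searched as TATAAA). The AP-1 match begins 4 bases past the Pax6-HIGH summit. Within 300 bases around the summit, TGAGTCA was present in 9.28% of all Pax6-HIGH peaks and 23.9% of all Pax6-ON peaks, TGTTTGC in 8.73% and 3.80%, and TAATTA in 4.84% and 2.96%. The Pax6-ON summit window also held these 3 matches. The *Iapp* promoter itself, without a peak, held CATCTG 109 bases before the start and GTTAAT, a part of the HNF1 site, at 136 bases.

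*Gcg* encodes the precursor of glucagon, the hormone of alpha cells. It lies on chromosome 2 from 62312587 to 62321707 (minus strand), and its window held 3 peaks in Pax6-HIGH cells and 0 in both other lines. The start-site peak ran from 62321367 to 62321973 over the first exon, with its summit 47 bp upstream of the start. Its summit held 220 fragments, 5.73 times the local background, with a q-value of 87.8 on the −log10 scale. By pileup it was at the 97.4th percentile, 724th from the top of the line. A peak from 62315332 to 62315623, in an intron 6.09 kb into the gene, was close to the limit of calling, with 46 fragments, 1.77 times the local background, and a q-value of 1.80 on the −log10 scale. The last, from 62311217 to 62312216, had its summit 971 bp beyond the end of the gene, with 65 fragments, 2.85 times the local background. A further Pax6-HIGH peak with 81 fragments lay 19.0 kb upstream, outside the window. Among the member hormone genes, only that for glucagon thus had a start-site peak in the insulinoma line.

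The local background that MACS2 used at the *Gcg* peaks was 22.2 to 37.5 fragments, above the lowest value of the line, 11.8. It is averaged over the surrounding bases and so includes the fragments of the peaks themselves. In the other lines, the nearest peaks were 133 kb (Pax6-ON) and 180.5 kb (Pax6-OFF) from the start. The promoter sequence is shown as the only accessible promoter among the member hormone genes, to set beside those of the insulin genes.

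*Gcg*, chr2:62321708-62321957, minus strand: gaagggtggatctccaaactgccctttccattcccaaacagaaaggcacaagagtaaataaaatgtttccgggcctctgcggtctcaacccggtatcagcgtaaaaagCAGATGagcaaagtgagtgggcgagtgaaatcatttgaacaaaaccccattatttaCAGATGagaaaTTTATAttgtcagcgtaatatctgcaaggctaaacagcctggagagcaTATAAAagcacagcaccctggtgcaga

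It holds 2 E-box matches (printed as CAGATG, the other strand of CATCTG), 142 and 86 bases before the start, and TATAAA at 27 bases, with a further TATA match at 75 bases on the other strand. Of all Pax6-HIGH peaks, 24.1% held CATCTG within 300 bases around the summit and 8.78% held TATAAA. E-box letters were thus present in the open *Gcg* promoter and in both insulin promoters without a peak. With 6 CpG in 250 bases, the *Gcg* run had a GC content of 44.4%, and the *Ins2* run, with 2 CpG, 52.8%.

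*Sst* encodes somatostatin, the delta-cell hormone that restrains the release of insulin and glucagon. It lies on chromosome 16 from 23889667 to 23890930 (minus strand), and its start had no peak in any line. In Pax6-HIGH cells, a wide peak of 1122 bp from 23898227 to 23899348 had its summit 8.24 kb upstream, in no annotated gene. Its summit held 54 fragments, 3.70 times the local background, at the 50.2 percentile of pileup. In Pax6-OFF cells, 2 narrow peaks lay within the same stretch, from 23898260 to 23898486 with 31 fragments and from 23898707 to 23898905 with 26. They ranked at the 6.92 and 0.292 percentile, among the weakest peaks of that line, and their summits were 755 and 458 bp from that in Pax6-HIGH cells. In Pax6-ON cells, the nearest peak was 1033 kb from the *Sst* start. The 200 bases around the Pax6-HIGH summit are shown because it is the stronger of the upstream peaks.

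*Sst* upstream site, chr16:23899068-23899267, minus strand: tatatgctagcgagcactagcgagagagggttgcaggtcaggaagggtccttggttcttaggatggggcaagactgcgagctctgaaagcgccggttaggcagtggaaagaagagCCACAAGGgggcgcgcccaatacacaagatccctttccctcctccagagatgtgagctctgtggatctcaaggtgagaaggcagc

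The run holds CCACAAGG, a match to the CTCF core letters CCACNAGG, which were found in 5.91% of Pax6-HIGH peaks. The Pax6-OFF windows did not hold it. The *Sst* promoter, which had no peak, held the cAMP response element TGACGTCA 48 bases before its start, a motif in 2.38% of all promoters, for which this promoter is known. It also held the homeobox letters CTAATG 96 bases before the start (6.82% of promoters).

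*Ppy* encodes pancreatic polypeptide, of PP cells. It lies on chromosome 11 from 101961244 to 101962633 (minus strand), in a window that also holds *Pyy*, for peptide YY. Neither gene had a start-site peak. The only peak in the window was in Pax6-OFF cells, from 101958388 to 101958581, with 39 fragments, 3.37 times the local background, at the 25.8th percentile. Its summit was 2701 bp past the end of *Ppy*, in no annotated gene, and it was 194 bp long. The nearest peak to the start was 83.7 kb away in Pax6-HIGH and 195.6 kb in Pax6-ON cells. The whole peak is shown as the only one of the 7 sites called in Pax6-OFF cells alone.

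*Ppy* downstream site, chr11:101958388-101958581, minus strand: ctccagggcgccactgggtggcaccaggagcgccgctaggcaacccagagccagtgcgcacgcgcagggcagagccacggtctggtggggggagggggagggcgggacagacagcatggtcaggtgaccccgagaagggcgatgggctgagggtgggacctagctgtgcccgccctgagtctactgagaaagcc

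None of the searched letters were found in it, and its GC content was 69.6%, with 11 CpG. The *Ppy* promoter held TGCTGAC 173 bases and TATAAA 31 bases before the start.

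**Figure D2:**
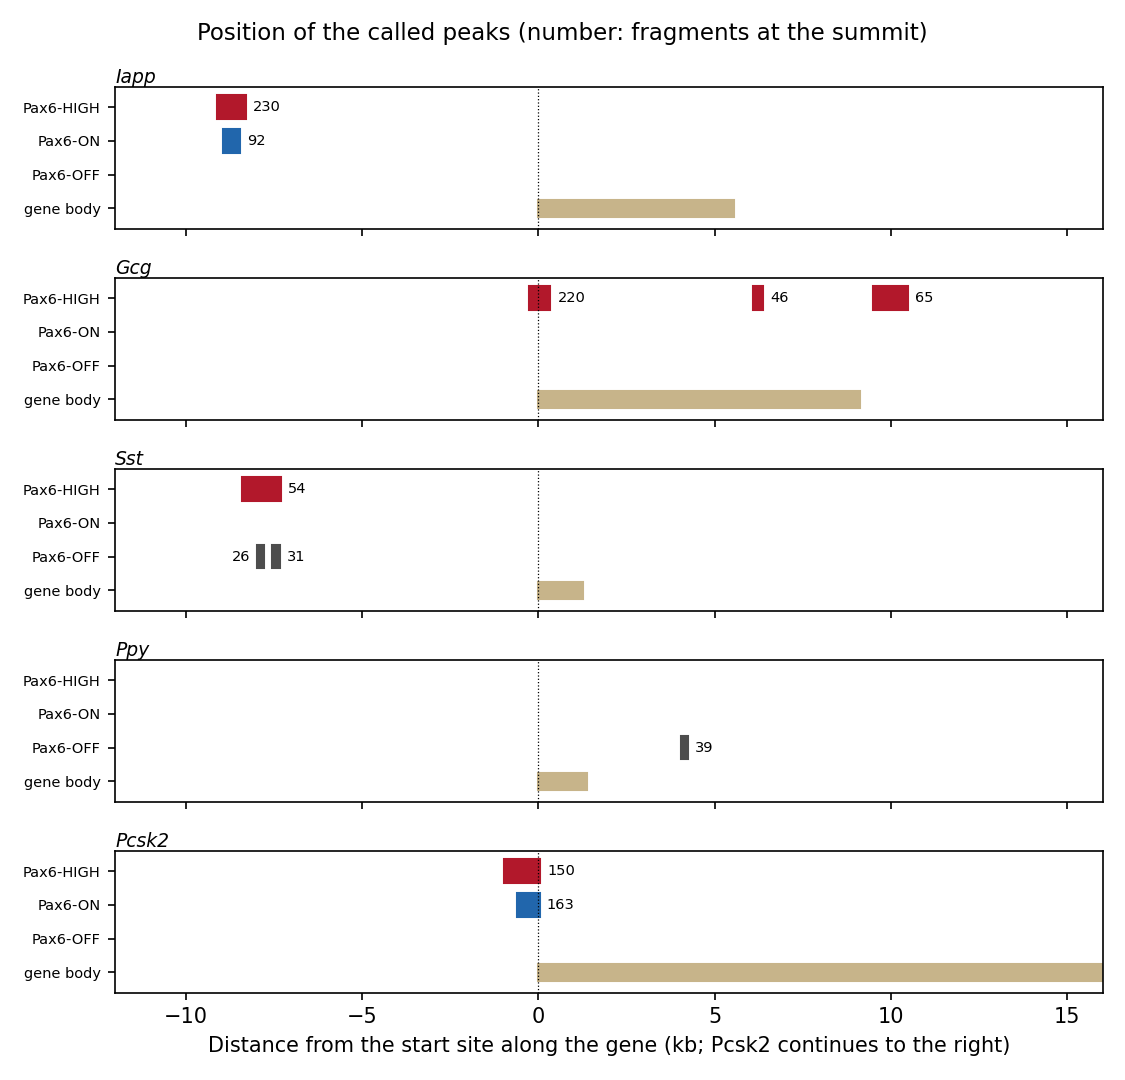
Position of each called peak along the 5 genes that had any, as distance from the main start site in kb (negative is upstream), with 1 row per line and the gene body as a tan bar. The number beside a peak is its fragments at the summit. Only *Gcg* and *Pcsk2* have peaks at 0, and the *Iapp* and *Sst* peaks lie more than 7 kb upstream.

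The convertase genes differed from each other. *Pcsk2* lies on chromosome 2 from 143371892 to 143642021 (plus strand) and is the longest of the group, with a body of 270 kb. In Pax6-HIGH cells its start-site peak spanned 143370922 to 143371951, and the summit held 150 fragments, 5.22 times the local background, at the 92.6th percentile. The Pax6-ON peak spanned 143371293 to 143371931, wholly inside the former, and its summit held 163 fragments, 6.87 times the local background, at the 95.7th percentile. The summits were 3 bp apart, 76 and 79 bp upstream of the start. Pileup carries no correction for depth, so only the ranks are set side by side. In Pax6-OFF cells, the nearest peak was 369 kb away, at the start of *Dstn*, and 6.24% of genes had a gap at least as long. The rest of the 290 kb window held no peak in any line.

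The *Pcsk2* peak also overlaps an exon of *C630020P19Rik*, a noncoding transcript from the other strand with a start within 1 kb of the peak. Accessibility at one start cannot be told apart from that at the other. *Pcsk1*, on chromosome 13 from 75227274 to 75269946 (plus strand), had no peak in its window of 62.7 kb. Its nearest peaks were 235, 226 and 281 kb from the start in the Pax6-HIGH, Pax6-ON and Pax6-OFF lines. Of all genes, 7.82% had a gap as long in Pax6-HIGH cells, and chromosome 13 held 11.4 peaks per Mb there. The *Pcsk1* promoter held TGACGTCA 47 bases before the start and the forkhead letters TGTTTAC at 13 bases (3.01% of promoters). The *Pcsk2* promoter is shown for its contrast in base composition with the hormone promoters.

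*Pcsk2*, chr2:143371642-143371891, plus strand: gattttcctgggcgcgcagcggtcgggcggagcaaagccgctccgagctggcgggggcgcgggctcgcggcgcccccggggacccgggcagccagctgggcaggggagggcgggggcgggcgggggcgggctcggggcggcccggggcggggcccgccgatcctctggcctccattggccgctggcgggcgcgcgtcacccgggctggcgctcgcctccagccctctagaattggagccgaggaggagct

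It held none of the searched letters and 34 CpG, at a GC content of 80.0%. Over 1000 bases around each start, *Pcsk2* was the only member with a CpG-rich promoter, taken as a GC content of at least 50% and an observed over expected CpG ratio of at least 0.6. Its ratio was 0.755, and the other members ranged from 0.0763 for *Ins1* through 0.469 for *Gcg* to 0.543 for *Sst*. Of the 12344 protein-coding genes with CpG-poor promoters, 20.6%, 8.47% and 12.6% had a start-site peak in the Pax6-HIGH, Pax6-ON and Pax6-OFF lines. Of the 10023 CpG-rich ones, 78.2%, 37.3% and 64.9% had one. *Gcg* was the 1 of 7 CpG-poor members with a start-site peak in Pax6-HIGH cells, beside that 20.6% of CpG-poor genes. In Pax6-ON and Pax6-OFF cells, 0 of these 7 had one.

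Across the 8 windows, the 11 called peaks made up 7 sites. Of these, 3 were called in Pax6-HIGH cells only (all at *Gcg*), 2 in Pax6-HIGH and Pax6-ON cells (*Iapp* and *Pcsk2*), 1 in Pax6-HIGH and Pax6-OFF cells (*Sst*) and 1 in Pax6-OFF cells only (*Ppy*). No site was called in all 3 lines or in Pax6-ON cells alone. The lines differ in their total of called peaks, at 28024, 9821 and 14022 for Pax6-HIGH, Pax6-ON and Pax6-OFF. The share of all peaks with each pattern is not given here, so these counts do not set the 8 genes apart from others. Together the windows cover 512 kb and held 1.17, 0.391 and 0.586 peaks per 100 kb in the Pax6-HIGH, Pax6-ON and Pax6-OFF lines. Over the windows of all protein-coding genes these densities were 1.82, 0.629 and 1.07. The *Pcsk2* window makes up 290 kb of this length and held 0.345 peaks per 100 kb in the Pax6-HIGH and Pax6-ON lines. Without it, the other 7 windows held 2.25, 0.450 and 1.35 peaks per 100 kb. These values were above the density over all genes in Pax6-HIGH and Pax6-OFF cells and below it in Pax6-ON cells. They rest on 5, 1 and 3 peaks, with 3 of the Pax6-HIGH peaks at *Gcg* and 2 of the Pax6-OFF peaks at the *Sst* site. The density over all genes keeps its long windows, so the comparison is not matched for length. Among single windows, that of *Gcg* held 10.3, *Sst* 4.70 and *Iapp* 3.92 peaks per 100 kb in Pax6-HIGH cells. With each line kept to its 9821 peaks of smallest q-value, the Pax6-HIGH peaks fell from 6 to 3, the *Gcg* and *Pcsk2* start sites and the *Iapp* site, and Pax6-ON cells kept 2.

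**Figure D3:**
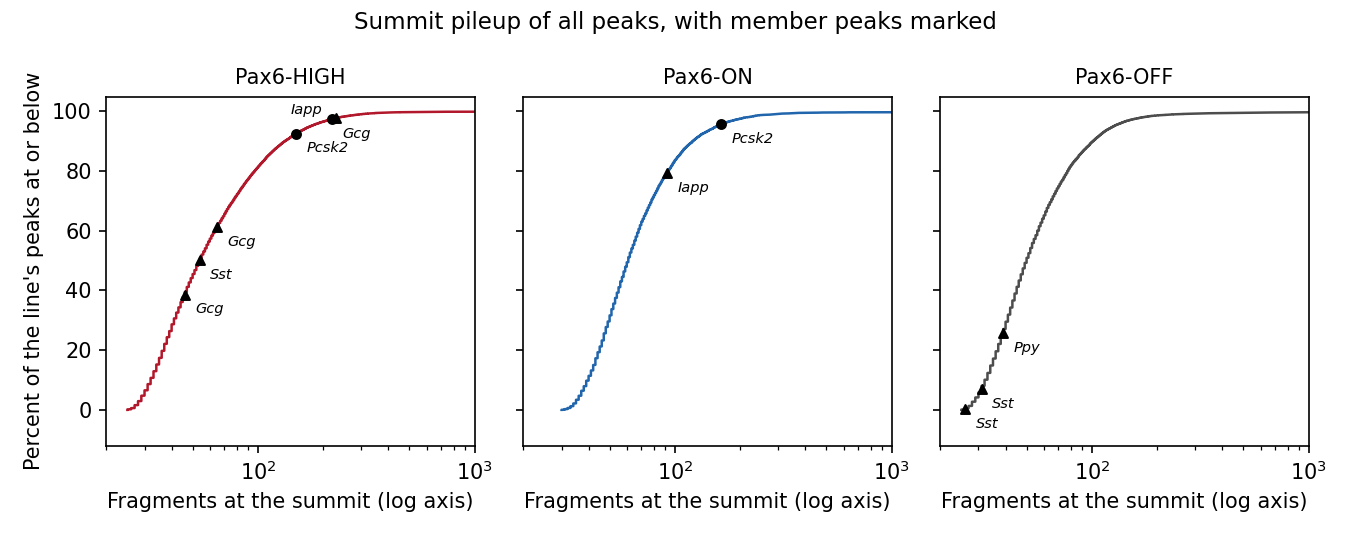
Cumulative share of all peaks (y axis, percent) by fragments at the summit (x axis, log scale) in each line, with the peaks of the 8 genes marked in black (circles for start sites, triangles for others). In Pax6-HIGH cells, *Iapp*, *Gcg* and *Pcsk2* sit near the top of the curve at 230, 220 and 150 fragments, whereas the Pax6-OFF peaks sit low, at 26 to 39 fragments.

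Genes that act with the members were counted in the same way. Of 5 prohormone processing partners, 3 had a start-site peak in Pax6-HIGH and 2 in each other line. The shares over all protein-coding genes were 46.4%, 21.4% and 36.1% in the Pax6-HIGH, Pax6-ON and Pax6-OFF lines. *Cpe*, whose product trims the basic residues that the convertases leave, and *Pam*, which amidates peptide ends, had one in all 3 lines. *Scg5*, for the chaperone of the *Pcsk2* product, had one in Pax6-HIGH cells alone, with 91 fragments and a fold enrichment of 5.14 (77.6th percentile). *Pcsk1n*, for an inhibitor of the *Pcsk1* product, and *Qpct* had none in any line. *Scg5* and *Pcsk2* were thus both open at the start in Pax6-HIGH cells, and differed in Pax6-ON cells.

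Of 7 other proprotein convertases, 4 had a start-site peak in the Pax6-HIGH and 1 in the Pax6-ON line, against 46.4% and 21.4% of all genes. The Pax6-OFF count of this list is not reported here. *Furin*, the convertase of the constitutive pathway, had it in Pax6-HIGH cells alone (42 fragments, 31.6th percentile). *Pcsk4* and *Pcsk7* had one in Pax6-HIGH and Pax6-OFF cells, and *Mbtps1* in all 3 lines. Of 18 other peptide hormone genes, 2 had one in Pax6-HIGH cells and 0 in each other line, against 46.4%, 21.4% and 36.1% of all genes. The Pax6-HIGH ones were *Vgf*, with 42 fragments and a fold enrichment of 2.86, and *Adcyap1*, with 32 fragments and 2.15, at the 31.6 and 9.66 percentile of the line by pileup. In 16 of the 18, among them *Npy*, *Pyy*, *Ghrl*, *Cck* and *Gip*, no line had one, and 15 of the 18 have CpG-poor promoters.

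**Figure D4:**
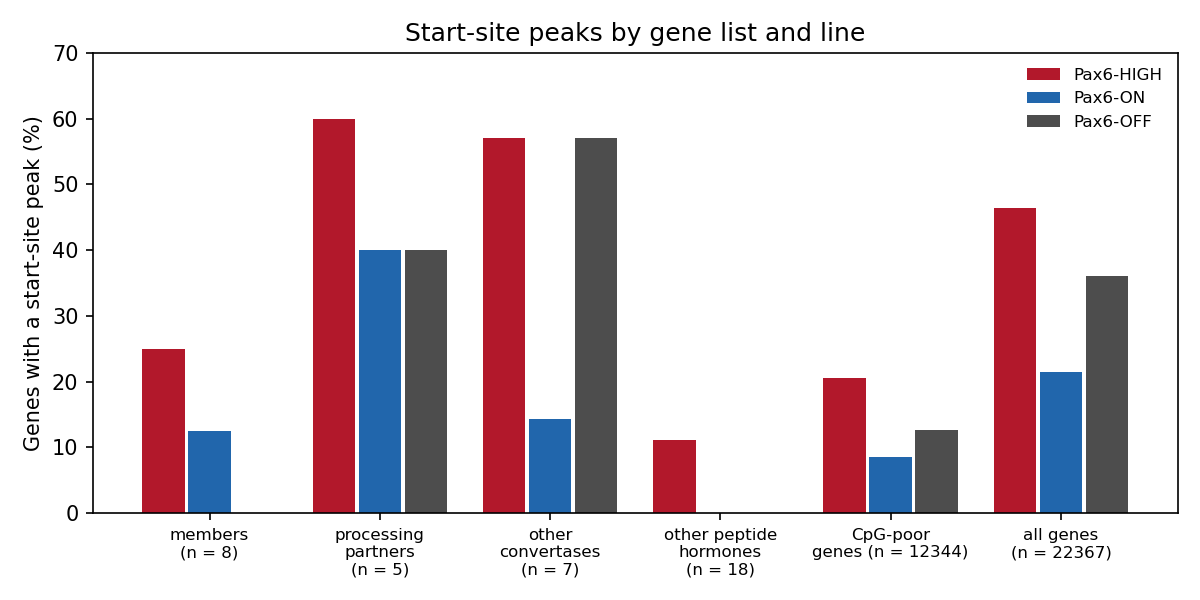
Share of genes with a start-site peak (y axis, percent) for the 8 members, the related lists, CpG-poor genes and all protein-coding genes, with red, blue and gray bars for Pax6-HIGH, Pax6-ON and Pax6-OFF cells and the number of genes under each list. Other peptide hormone genes have bars in Pax6-HIGH cells only, at 11.1%, below the 20.6% of CpG-poor genes.

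Genes with the most similar profile were found by the percentile of the strongest peak in the window in each of the 3 lines, taken as 0 where there was none, among genes with the same start-site pattern. The closest to *Gcg* were *March11* and *Arpp21*, at distances of 0.0285 and 0.066 percentile points. Those to *Pcsk2* were *Ppp4r4* (0.555) and *Lrrk2* (1.86), those to *Iapp* were *Clec11a* (1.81) and *Shank1* (1.83), and those to *Sst* were *Grm5* (2.14) and *Gm11006* (2.46). For *Ppy*, whose profile rests on a single weak peak, *1700101G07Rik* and *Adig* were at a distance of 0, taken in alphabetical order among ties. With only 3 lines such profiles are coarse, and 518 to 11063 genes were compared for each member.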

How the data were processed

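ATAC-seq was done in duplicate on 3 mouse lines. Per the labels, methods and file headers, the authors trimmed reads with Trim Galore 0.4.1, aligned to mm9 with Bowtie2 2.2.6 and called peaks with MACS2 2.1.1 on pooled replicates in paired-end mode, keeping duplicates, with no control or shift of read ends named, at a q-value cutoff of 0.05. The deposited pileup is an unscaled signal, the fragments at the summit, so it was ranked within its line. The deposited fold enrichment is its ratio to local background, and the authors' q-values are −log10 values. All peaks were present by their numbering. Genes came from GENCODE M1 on NCBIM37 (the mm9 assembly). A window overlap of 1 bp counted. The main start was that of the first protein-coding transcript. Tables were handled in Python 3.11.15 (pandas 2.3.3), and the window rules were tested on simulated data. The motif letters, searched on both strands, were TGACGTCA for the cAMP response element, CATCTG for the E-box, TAATTA for a first homeobox form, CTAATG for a second, TGCTGAC for MAF factors, TGTTTAC for a first forkhead form, TGTTTGC for a second, GTTAAT for part of an HNF1 site, GTTGCCA for part of an RFX site, TGAGTCA for AP-1, TTCACGC for part of a paired-domain site, CCACNAGG for the CTCF core and TATAAA for the TATA box. The genes, related lists and markers, and the rule for similar genes, were chosen with earlier results of these data known. Of the related lists, genes with a start-site peak in 1 line only were named, apart from results that are not reported here, and others as examples chosen after their values were seen. The base composition comparison was added after seeing the data, as was the distance to the nearest peak. Sequences were read from NCBIM37. No test was made, as each line has 1 pooled list.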

Additional observations from a re-analysis of the deposited data

How the results depend on the processing

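No paired analysis was possible because the replicates of each line were pooled before peak calling, and no replicate could be left out for the same reason. Of 125 recomputed values, 85 stayed within 1.5 times the count or density, or within the 95% Wilson confidence interval of the rank, and 40 moved. Start-site counts of the 8 genes stayed the same under every alternative tried, including limits of 500 bp and 2 kb. With 9821 peaks per line, window peaks numbered 3 for Pax6-HIGH and 1 for Pax6-OFF (1 gene), leaving 1 site in Pax6-HIGH only and 0 in Pax6-HIGH and Pax6-OFF cells, while start sites of other convertases in Pax6-HIGH cells fell from 4 to 2 and of other peptide hormones from 2 to 0 (both added after seeing the data). Without the *Pcsk2* window, likewise added, peaks per 100 kb moved to 2.25 for Pax6-HIGH and 1.35 for Pax6-OFF. With 5 kb on either side, genes with a peak numbered 2, 1 and 1 in the Pax6-HIGH, Pax6-ON and Pax6-OFF lines, with 1 peak in each of the latter lines, 1 site in Pax6-HIGH and Pax6-ON and 0 in Pax6-HIGH and Pax6-OFF cells. An overlap of 50% of both peaks split the *Sst* site, giving 0 sites in Pax6-HIGH and Pax6-OFF and 3 in Pax6-OFF cells only. Ranked by fold enrichment, −log10 q-value and pileup on its own chromosome, the strongest peak stood at the 81.9, 96.2 and 98.5 percentile for *Gcg*, 74.9, 89.4 and 95.1 for *Pcsk2* in Pax6-HIGH, 87.2, 93.8 and 94.3 for *Pcsk2* in Pax6-ON, 82.2, 81.5 and 81.5 for *Iapp* in Pax6-ON, 47.8, 48.8 and 46.3 for *Sst* in Pax6-HIGH, and 36.1, 31.8 and 26.9 for *Ppy* in Pax6-OFF cells. *Iapp* in Pax6-HIGH cells moved to 92.9 by fold and 95.5 on its chromosome, and *Sst* in Pax6-OFF cells to 14.6 by fold and 9.44 by q-value. For the ranks the cause was not tested. A site that was not called cannot be told apart from closed chromatin here. The limit depended on local background as well as on the lowest called pileup. The *Gcg* intron peak, with 46 fragments over a background of 25.5, had a q-value of only 1.80 on the −log10 scale.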
